A study of Homo sapiens with 8 samples.

Results

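At PERP, CHN1 and FMNL2, EZH2 peaks at the start site (PERP and CHN1) or just inside the gene (FMNL2) were higher in each run in myeloma cells with low MMSET, or were called in those cells alone (PERP). The 3 genes were chosen from earlier results on the heights and widths of these same peaks, CHN1 and FMNL2 for a higher TKO peak in each run and PERP for peaks called in TKO cells alone. The difference in height between the lines is therefore given as a description, without a test, and the same holds for width, mean level of reads and p-value, which come from the same peaks. All peaks with at least 1 base within 10 kb of the start site were taken as members. They were 13 of the 19721 peaks of the 4 lists, 3 at PERP, 4 at CHN1 and 6 at FMNL2, and they fell into 4 of 11858 merged regions.

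EZH2 ChIP-seq was performed in a pair of lines derived from the t(4;14)+ myeloma line KMS11 by homologous recombination, grown in RPMI1640 with serum and used at the same range of passages. In NTKO cells the disrupted copy of MMSET is the wild-type one, so that the IGH-MMSET translocation still drives its high expression. In TKO cells the translocated copy is disrupted instead, and the single wild-type copy gives low expression. Each line had 2 ChIP samples (run 1 and run 2, which the study describes as independent biological replicates) and 2 input samples, and each ChIP sample has its own list of peaks. Both groups are thus edited lines of a single origin, and a difference between them cannot be told apart from any other difference that arose between the lines. MMSET itself is not measured in these lists, and in bulk chromatin EZH2 in more cells and more EZH2 per cell cannot be told apart.

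EZH2 is the catalytic subunit of Polycomb repressive complex 2, which trimethylates lysine 27 of histone H3, a mark of silenced genes, and is often found at promoters rich in CpG dinucleotides. MMSET dimethylates lysine 36 of the same histone, and H3K36 methylation is known to hinder the complex on the same histone tail. PERP encodes a membrane protein that is a target of p53 and p63 and a part of desmosomes, the junctions that hold epithelial cells together. CHN1 encodes chimerin 1, a protein that switches off the small GTPase RAC and is known for its role in guiding nerve fibres. FMNL2 encodes a formin, which elongates actin filaments in cell protrusions. The comparison addresses where EZH2 sits when MMSET is low or high.

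The sequences just upstream of the start sites are shown because the main PERP peaks and 3 of the 4 CHN1 peaks (all but that of NTKO run 1) reach into this stretch, by distance from the start site, while the FMNL2 peaks begin downstream of it. They are the 250 bases before the RefSeq start in GRCh38.p14, on the strand of the gene and read 5′ to 3′, at chr6:138107420-138107669 (minus strand) for PERP, chr2:175005382-175005631 (minus strand) for CHN1 and chr2:152334924-152335173 (plus strand) for FMNL2. Capitals mark CpG dinucleotides. Start sites are approximate: the spacing of those of CHN1 and FMNL2 differs by 241 bp from GRCh37, and the PERP start was not checked. Which peaks reach into this stretch is therefore approximate too.
PERP: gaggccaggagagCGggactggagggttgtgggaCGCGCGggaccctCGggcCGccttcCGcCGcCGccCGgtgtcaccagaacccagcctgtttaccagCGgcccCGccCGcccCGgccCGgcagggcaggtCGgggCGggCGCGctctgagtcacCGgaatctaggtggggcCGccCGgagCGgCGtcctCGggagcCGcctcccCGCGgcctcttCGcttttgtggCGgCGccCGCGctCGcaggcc
CHN1: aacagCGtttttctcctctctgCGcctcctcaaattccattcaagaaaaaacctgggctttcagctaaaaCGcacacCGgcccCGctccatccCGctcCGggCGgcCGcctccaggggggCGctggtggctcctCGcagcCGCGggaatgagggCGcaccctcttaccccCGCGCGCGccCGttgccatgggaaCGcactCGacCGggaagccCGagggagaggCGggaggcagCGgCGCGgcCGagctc
FMNL2: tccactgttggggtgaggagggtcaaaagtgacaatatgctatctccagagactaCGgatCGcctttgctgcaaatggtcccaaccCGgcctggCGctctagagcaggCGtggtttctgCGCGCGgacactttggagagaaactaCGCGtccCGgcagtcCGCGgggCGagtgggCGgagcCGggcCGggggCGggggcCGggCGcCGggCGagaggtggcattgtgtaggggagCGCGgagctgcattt

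All 3 genes had an entry in the RefSeq promoter table, CHN1 with a pair of start sites, of which the upstream one is shown. In windows of 300 bases, from 250 before to 50 after the start, PERP had 43 CpG dinucleotides and a GC content of 77.0%, CHN1 had 36 and 68.0%, and FMNL2 had 27 and 66.3%. The median of 35116 such windows was 14 CpG and 58.7% GC, and all 3 promoters lay above it. The second start site of CHN1 had 44 CpG. The study reported GATA and homeodomain motifs in regions bound by EZH2 only in TKO cells. For NTKO cells it reported CTCF-like motifs and G-rich or C-rich sequences. Letters of these families were counted here on both strands of the promoter windows, not under the peaks. Of the 3 genes, only PERP had peaks in TKO cells alone. CHN1 and FMNL2 had peaks in both lines, so motifs of regions bound in a single line do not bear on them directly. A GATA core (the letters GATA with A or T before and A or G after) was found 1 time at FMNL2 and not at PERP or either CHN1 window, while 25% of all windows hold one. The homeodomain letters TAATTA were in none of them (4.84% of all windows). CCCTC, a part of the CTCF site, was found 2 times at PERP, 3 times in the upstream CHN1 window and 1 time at FMNL2, with 71.2% of all windows holding it. A run of 5 G was found 3 times at CHN1, 2 times at FMNL2 and not at PERP (58.4% of all windows). These matches are descriptions of letters and not of binding.

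At PERP, EZH2 peaks were found in TKO cells in both runs and in neither list of NTKO cells. In TKO run 1 a single peak lay at hg18 chr6:138469788-138470428, with a height of 56 reads at its summit and a width of 640 bp. In TKO run 2 it lay at chr6:138469680-138470918, with a height of 169 reads and a width of 1238 bp. Both peaks covered the start site given as chr6:138470350. Their summits lay 290 and 367 bp downstream of it in the direction of the gene. The run 1 peak reached only 78 bp upstream, and the accuracy of the PERP start site was not checked. The first exon of PERP is 293 bp long in GENCODE, so by distance the summits fell near the end of that exon. TKO run 2 had another, lower peak further into the gene, at chr6:138469036-138469340, with a height of 57 reads and a width of 304 bp. It was not found in run 1.

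The PERP peak stood high among the TKO peaks in both runs. It ranked 133 of 651 by height in TKO run 1 and 87 of 5516 in TKO run 2, with a −log10 p of 26.3 and 60.1. The mean level of reads inside it was 35.96 and 64.3. Mean height in TKO cells was 112.5 ± 79.9 reads (SD, n = 2), and the spread followed the run, since run 2 was 3.02-fold higher. No height can be given for NTKO cells, because the lists hold only regions past the threshold, so an absent peak does not mean an absence of EZH2. The lowest heights called in NTKO cells were 25 reads in run 1 and 23 in run 2, and 5% of called peaks lay at or below 40 and 44 reads. The closest NTKO peaks to the PERP start lay 54.7 kb away in both runs. Across the genome, 30 of 11858 merged regions (0.253%) were called in both runs of TKO cells but never in NTKO cells. The opposite pattern was seen at 557 (4.7%). With regions within 1 kb merged, 22 of 6105 were called in TKO cells only, PERP among them. Within a single run, a TKO peak without an NTKO peak was seen at 4.08% of regions in run 1 and 11.1% in run 2. The choice of PERP used this contrast, so its place among the 30 regions is a description. It was the third highest of them in run 2, and stood between a region at chr1:146542818-146543201 (199 reads) and another at chr17:68672791-68674158 (167 reads). It was also the fifth highest in run 1, and its width ranked 3 of 30 in run 1 and 5 of 30 in run 2.

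**Figure D1:**
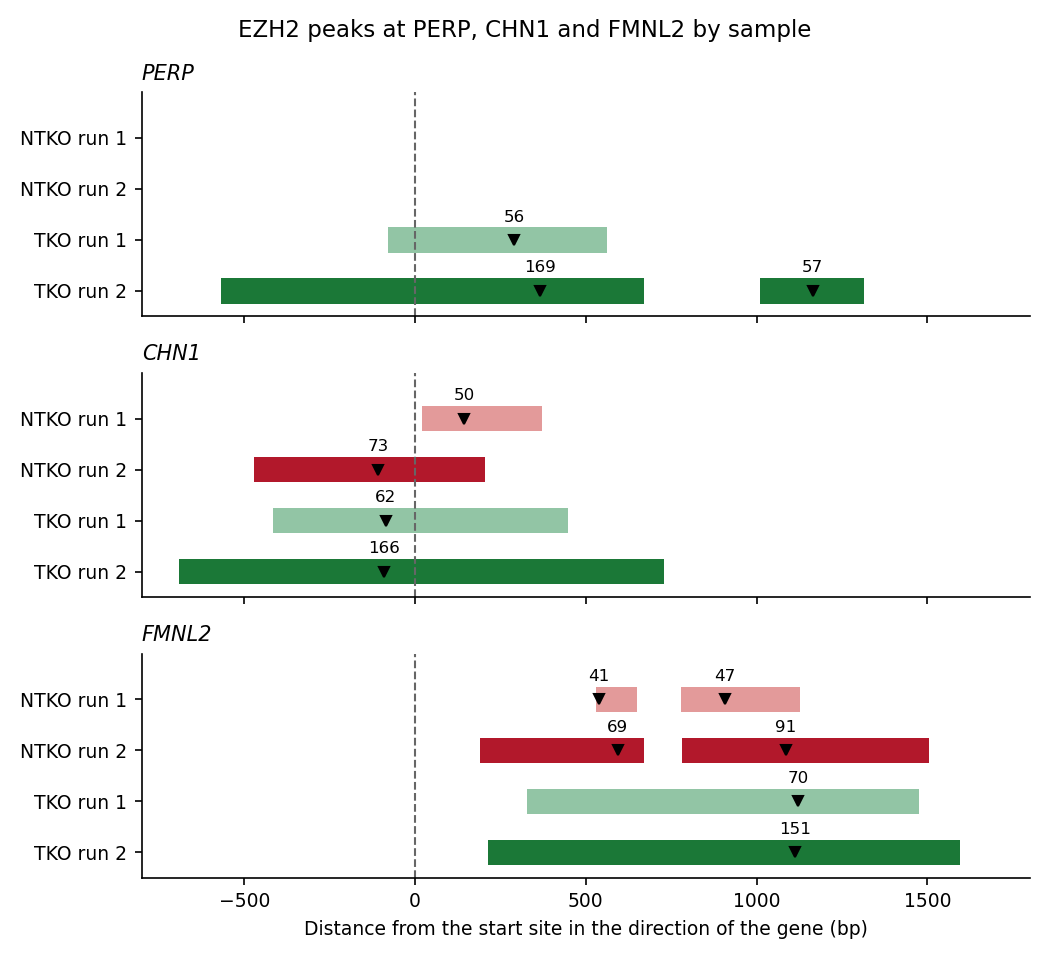
EZH2 peaks within 10 kb of the start sites of PERP, CHN1 and FMNL2, drawn to scale as bars by their distance in bp from the start site (dashed line), with 1 row for each of the 4 samples. Triangles mark summits and the numbers above them are heights in reads; PERP has bars in TKO rows only, the CHN1 bars lie across or beside the start site, and the FMNL2 signal is 2 bars in each NTKO row and 1 longer bar in each TKO row.

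At CHN1, all 4 lists had 1 peak at the start site given as chr2:175578180. In NTKO cells its height was 50 reads in run 1 and 73 in run 2, and in TKO cells 62 and 166. The TKO sample was the higher one in each run, 1.24-fold in run 1 and 2.27-fold in run 2, but the lines overlapped, since NTKO run 2 was above TKO run 1. The log2 height averaged 5.92 ± 0.39 (SD, n = 2) in NTKO and 6.66 ± 1.00 in TKO samples. The gap between these means (-0.75, NTKO less TKO) was below the SD of the TKO samples. The peak was 353 and 677 bp wide in the NTKO runs and 866 and 1421 bp wide in the TKO runs. Here the lines did not overlap, and the mean log2 width ratio of NTKO to TKO was -1.18 ± 0.16 (SD over 2 runs). The SD of log2 width within a line (0.66 in NTKO and 0.51 in TKO) holds the rise from run 1 to run 2. It is therefore no measure against which to judge the ratio, which is a description.

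The CHN1 peaks of 3 samples shared nearly the same summit. It lay 108 bp upstream of the start site in the second NTKO sample, 86 and 92 bp upstream in the TKO samples, and the summits of the TKO runs were 6 bp apart. In NTKO run 1 it lay 144 bp downstream. That peak, at chr2:175577807-175578160, did not cover the start site as given, which lay 20 bp from its edge. The spacing of the CHN1 and FMNL2 start sites differs by 241 bp from GRCh37, so the side of the start is not settled for these summits. The widest peak, in TKO run 2, spanned chr2:175577451-175578872, from 692 bp upstream to 729 bp downstream. The mean level of reads was 35.4 and 36.2 in the NTKO runs and 37.7 and 67.2 in the TKO runs, so in run 1 it differed by only 1.06-fold between the lines. The −log10 p was 16.8 and 25.1 in the NTKO samples and 24.5 and 59.0 in the TKO ones. The peak of NTKO run 1 was therefore close to the threshold of 15, and would be absent under a threshold of 20. The closest other peak lay 322 kb away in NTKO cells and 662 kb away in TKO cells.

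At FMNL2, the lists of NTKO cells held 2 separate peaks and those of TKO cells 1 peak over the same stretch. In NTKO cells the highest peak reached 47 reads in run 1 and 91 in run 2, and in TKO cells 70 and 151. The TKO sample was again the higher one in each run, by 1.49-fold and 1.66-fold, and the lines overlapped in the same way as at CHN1. The log2 height averaged 6.03 ± 0.67 (SD, n = 2) in NTKO and 6.68 ± 0.78 in TKO samples. The mean ratio of -0.65 ± 0.11 (SD over 2 runs) was smaller than the SD within either line, while it varied little between the runs. The second NTKO peak was lower, with 41 reads in run 1 and 69 in run 2.

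The highest FMNL2 peak was 348 and 723 bp wide in the NTKO runs and 1147 and 1382 bp wide in the TKO runs. The lines did not overlap in this measure, with a mean log2 ratio of -1.33 ± 0.56 (SD over 2 runs). That depended on how the signal was split into peaks. When peaks of a list closer than 1 kb were joined, the NTKO widths became 596 and 1314 bp, NTKO run 2 was wider than TKO run 1, and the mean log2 ratio was -0.51, with -0.94 in run 1 and -0.07 in run 2. With the widths of all FMNL2 peaks summed, the NTKO runs had 468 and 1204 bp and the lines overlapped as well. At CHN1 neither change altered the widths, because each list had 1 peak there.

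The FMNL2 peaks lay inside the gene. The TKO peaks spanned chr2:152900328-152901475 and chr2:152900213-152901595. No FMNL2 peak reached the start site, which was given as chr2:152900000. The closest edge, in NTKO run 2, lay 190 bp from it. That is less than the 241 bp by which the spacing of the CHN1 and FMNL2 start sites differs from GRCh37. Summits of the TKO peaks lay 1122 and 1113 bp downstream, 9 bp apart. That of the highest NTKO peak lay 908 bp downstream in run 1 and 1086 bp in run 2. The first exon of FMNL2 is 547 bp long in GENCODE, so by distance these summits were in the first intron. The mean level of reads was 32.2 and 43.8 in the highest NTKO peaks and 40.5 and 71.8 in the TKO peaks, and the −log10 p was 17.9, 34.3, 29.2 and 63.9 in the same order.

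CHN1 and FMNL2 were set against the 326 merged regions that every list called, to which they belong. In TKO cells they were ordinary members of this set, and in NTKO cells they were among its lowest. CHN1 was higher than 4.60% and 5.52% of the regions in the NTKO runs, but higher than 75.8% and 73.0% in the TKO runs. FMNL2 was higher than 3.07% and 11.04% in the NTKO runs and 82.2% and 61.7% in the TKO runs. The main PERP peak, set against the same regions though not one of them, would lie above 69.6% and 76.4% in the TKO runs. These places within a sample do not change when all heights of a sample are scaled by the same factor. They depend on the set, though, which needs a peak in TKO run 1, the shortest list (651 peaks). Its median height in the NTKO runs was 97.5 and 163.5 reads, against 52 and 63 over the whole lists. In the TKO runs it was 47 and 138.5, against 44 and 65. Among all peaks of the NTKO lists, CHN1 was higher than 41.7% and 65.6%, and FMNL2 than 28.5% and 81.0%. In the TKO lists these values were 84.3% and 98.1%, and 88.9% and 97.0%. Since the genes were chosen from these heights, the places are a description.

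**Figure D2:**
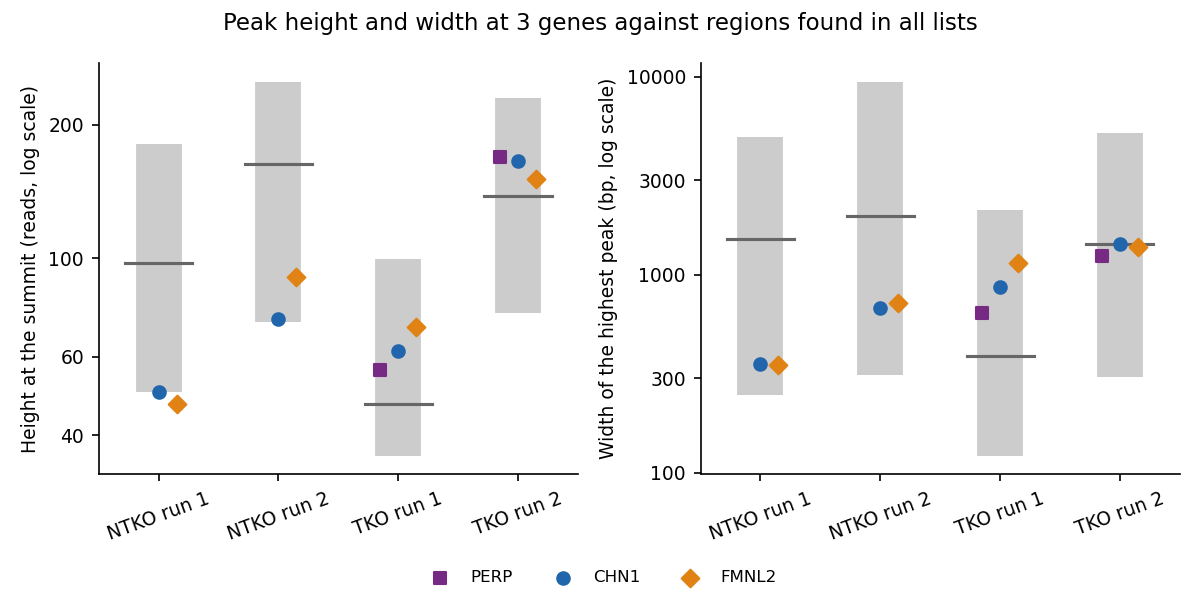
Height at the summit in reads (left) and width of the highest peak in bp (right), both on log scales, at PERP, CHN1 and FMNL2 in each of the 4 samples, against the 5th to 95th percentile (gray bar) and the median (gray line) of the 326 regions with a peak in all 4 lists. The CHN1 and FMNL2 points lie near the lower end of the height bar in both NTKO samples and above the median in both TKO samples, and PERP has points in TKO only.

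In heights as deposited, most regions of the set went the other way. Their log2 height ratio, NTKO over TKO, had a median of 0.90 in run 1 and 0.12 in run 2, against -0.31 and -1.19 at CHN1 and -0.57 and -0.73 at FMNL2. CHN1 had the lowest ratio of all 326 regions in run 2 and the third lowest value in run 1, tied with a region on chromosome 11 (16582617-16585087), and FMNL2 the lowest in run 1 and the fifth lowest in run 2. A higher peak in TKO cells in both runs was seen at 6 of 326 regions (1.84%), and the same 6 were the only ones with a higher TKO peak in run 1, while run 2 alone had 91 (27.9%). These counts depend on the scale of the heights. With heights divided by each sample's median over the 326 regions, 159 regions were higher in TKO cells in both runs, and with each list's median 19 were. The ratios at CHN1 and FMNL2 stayed below 0 in each run under the former, and their order among the regions within a run does not depend on such scaling. The choice of CHN1 and FMNL2 used this contrast, so their being among the 6 is no finding. Just outside the pair in order of the mean ratio (-0.75 and -0.65) came a region at chr2:132512334-132513047 (-0.62). Both TKO samples were above both NTKO samples in height at 1 region (0.307%), neither CHN1 nor FMNL2. In width of the highest peak this was so at 7 regions (2.15%), CHN1 and FMNL2 included, and with summed widths at 5 (1.53%), CHN1 included. A wider TKO peak in both runs was seen at 16 regions (4.91%), with a median log2 width ratio over the 326 of 1.54 in run 1 and 0.23 in run 2.

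**Figure D3:**
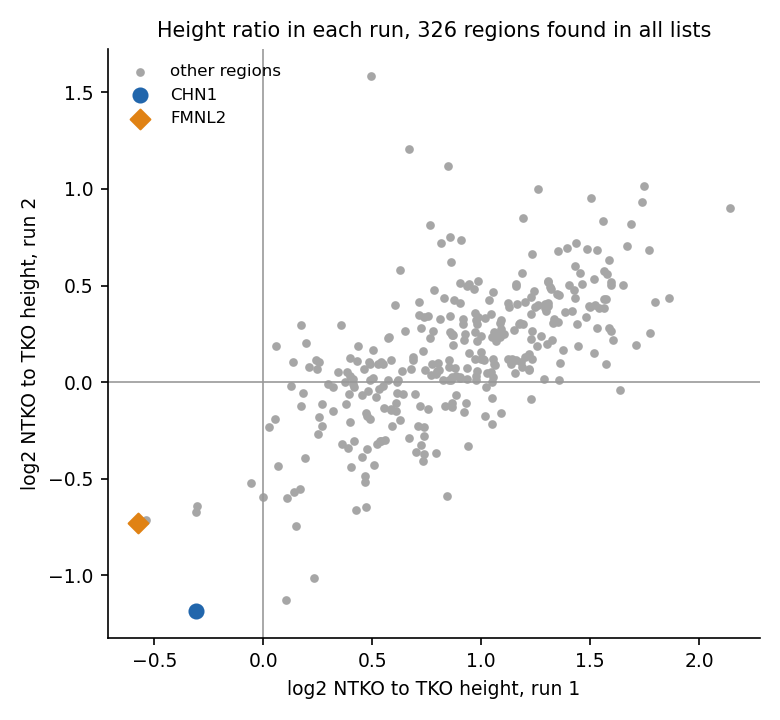
Log2 ratio of NTKO to TKO height in run 1 (horizontal) and run 2 (vertical) for the 326 regions with a peak in all 4 lists, 1 point each. Values below 0 mean a higher TKO peak; CHN1 (-0.31 and -1.19) and FMNL2 (-0.57 and -0.73) lie in the lower left with 4 other regions, and most regions lie to the right of 0.

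Heights also differed between the runs of a line. From run 1 to run 2, height rose 1.46-fold at CHN1 and 1.94-fold at FMNL2 in NTKO cells. In TKO cells it rose 2.68-fold at CHN1, 2.16-fold at FMNL2 and 3.02-fold at PERP. On the log2 scale the TKO rise was 1.42 at CHN1 and 1.11 at FMNL2, against a median of 1.47 over the 326 regions, and the NTKO rise was 0.55 and 0.95 against a median of 0.62. At PERP the TKO rise was 1.59, against a median of 1.24 over the 30 regions found in TKO cells only. The change between runs at these genes was thus of the size seen across their sets, and whether the heights had been scaled to library size is not stated. The lists of run 1 were also shorter, with 2972 and 651 peaks in NTKO and TKO cells, against 10582 and 5516 in run 2. When heights were divided by each sample's median over the 326 regions, the run ratios at CHN1 came to -1.36 and -1.42, close to each other, and those at FMNL2 to -1.63 and -0.97.

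**Figure D4:**
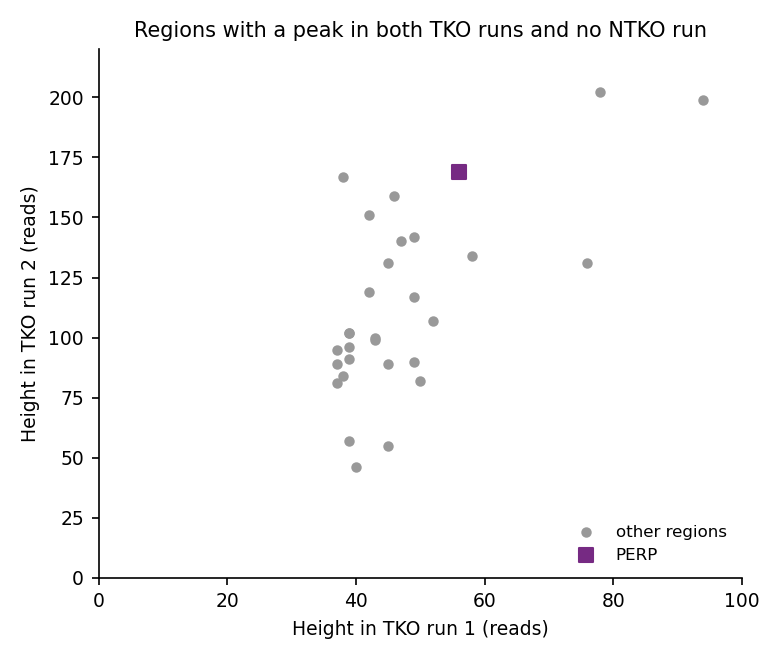
Height in reads in TKO run 1 (horizontal) and TKO run 2 (vertical) of the 30 regions called in TKO cells alone, 1 point each. PERP (56 and 169 reads) is the third highest in run 2, below regions with 202 and 199 reads.

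Peaks around these genes, which played no part in the choice, were compared to see how far the higher TKO signal extended. Within 5 Mb of CHN1 and more than 10 kb away from it, NTKO cells had 17 peaks in run 1 and TKO cells 9, and in run 2 they had 25 and 18. Of the 6 pairs of overlapping peaks in run 1, 0 were higher in TKO cells, with a median log2 height ratio of 1.14 (NTKO over TKO). The median of all 390 pairs in run 1 was 0.86. In run 2, 2 of 10 pairs were higher in TKO cells, with a median of 0.25, which was also the median of all 2985 pairs in that run. The closest region with a peak in all 4 lists, 662 kb from CHN1, had 170 and 227 reads in the NTKO runs and 78 and 209 in the TKO runs. Over all pairs, 2.31% of 390 were higher in TKO cells in run 1 and 25.4% of 2985 in run 2. The pairs around CHN1 lay near these shares, but 6 and 10 pairs are too few to tell whether its surroundings differ.

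Around PERP few peaks could be compared. The closest region with a peak in all 4 lists, at chr6:138524986-138525770 and 54.6 kb from the start, had 47 and 49 reads in the NTKO runs and 34 and 70 in the TKO runs. Its NTKO peak was the higher one in run 1 and its TKO peak in run 2. Within 5 Mb, NTKO cells had 2 peaks in run 1 and 15 in run 2, and TKO cells 1 and 4, without those at PERP. In run 2, 1 of the 3 overlapping pairs was higher in TKO cells. Around FMNL2 there was nothing to compare. No other peak lay within 1 Mb in any list, and within 5 Mb only NTKO run 2 had any, with 2 peaks, the closest 2209 kb away. Copy number was not measured here, and its part in the heights was not tested.

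The regions whose heights were most like those at CHN1 and FMNL2 were found by the distance between their log2 heights in the 4 samples, each sample centred on its median over the 326 regions. FMNL2 was the closest region to CHN1 and CHN1 the closest to FMNL2, at a distance of 0.40. For both, the next was chr11:16582617-16585087, at 0.46, with 50 and 76 reads in the NTKO runs and 62 and 121 in the TKO runs. The third for CHN1 was chr4:85723126-85724356, at 0.57, with 50 and 90 reads in NTKO and 45 and 151 in TKO. The third for FMNL2 was chr5:126393130-126394563, at 0.57, with 50 and 115 reads in NTKO and 52 and 165 in TKO. For PERP, the closest of the 29 other regions found in TKO cells only lay at chr1:205693944-205695018, with 46 and 159 reads in the TKO runs. It was followed by chr2:60635350-60636270 (49 and 142 reads) and chr1:210849161-210850032 (58 and 134 reads). Genes were not assigned to these regions, because no hg18 annotation was used here.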

How the data were processed

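Per the methods, the authors mapped reads to hg18 (BWA), discarded duplicates at the same position, and used ChIPseeqer to call peaks in every ChIP sample over its input (2-fold, −log10 p of at least 15). Deposited signal columns give the mean level and the summit height of reads, with no stated scaling to library size. The deposited score column is the log10 p-value, and the deposited percent column places the summit within the peak. Depth is unknown from the peak lists, read totals were not used here, and no counting interval was computed. Input samples entered only through the calls.

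Peaks within 10 kb of the start sites were taken in each list, and the highest stood for the gene. Peaks sharing at least 1 base were merged over the 4 lists. Positions are hg18 as deposited, with both ends in the peak, and none was converted. The start sites were given with the gene names. The distance between those of CHN1 and FMNL2 differs by 241 bp from that in GRCh37 (GENCODE), so distances from a start site are approximate. This spacing sets no limit on the error of a single start site, and the PERP start was not checked. Promoter sequences are from RefSeq (GRCh38.p14). Members, lists and comparisons were chosen with earlier results of these data known. Regions most like each gene were the 3 nearest in log2 height. The merging and pairing steps were tested on simulated data. Python 3.11.15, numpy 2.4.6, pandas 2.3.3 and matplotlib 3.10.9 were used.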

Additional observations from a re-analysis of the deposited data

How the results depend on the processing

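Of 51 alternative values over 7 results, 14 moved by more than the spread between runs or, for counts, by over 1.5 times. The 14 include the percentile values at CHN1 and FMNL2, which are in percentage points and cannot be set against a log2 spread. The height and width ratios at CHN1 and FMNL2 stayed below 0 in every alternative run. Both genes were chosen for a higher TKO peak in each run, so the constant sign is no support for a difference. The PERP height and the counts have no direction. Dividing heights by each sample's median over the 326 regions moved the mean log2 NTKO to TKO height ratio to -1.39 at CHN1 and -1.30 at FMNL2, and the count of regions higher in TKO cells in both runs from 6 to 159, since that scaling sets the median of each sample equal. Dividing by each list's median gave 19 regions. A −log10 p of at least 20 left 2 regions of 157, without CHN1 and FMNL2, whose NTKO run 1 peaks fell out. At that threshold 15 of 7233 merged regions were found in TKO cells only, PERP among them, in place of 30 of 11858. The mean level of reads gave -0.52 at FMNL2. As percentiles within each list, NTKO less TKO was -37.6 points at CHN1 and -38.2 at FMNL2 (-60.5 in run 1 and -16.0 in run 2), but lists of unequal length make these places not comparable as a change. Summed widths gave a log2 ratio of -0.75 at FMNL2, and joining peaks within 1 kb gave -0.51. Leaving out a replicate gave height ratios from -1.19 to -0.31 at CHN1 and -0.73 to -0.57 at FMNL2, and width ratios from -1.29 to -1.07 and -1.72 to -0.93. It gave 6 to 91 regions higher in TKO, 89 to 1299 found in TKO only, and 56 to 169 reads at PERP. With samples paired by run (replicate block), the ratios stayed at -0.75 and -0.65 for height and -1.18 and -1.33 for width, as pairing does not alter a mean over 2 complete runs; no such value exists for PERP, which has no NTKO peak.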

Other observations

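The 4 regions other than CHN1 and FMNL2 with a higher TKO peak in both runs lay on hg18 chr2:132512334-132513047, chr11:16582617-16585087, chr1:155281541-155283249 and chr5:126393130-126394563, of which those on chromosomes 2 and 1 are named here after their values were seen. On chromosome 1, heights were 72 and 123 reads in the NTKO runs and 89 and 192 in the TKO runs. On chromosome 2 they were 40 and 47 in NTKO and 58 and 77 in TKO, and this was the region where both TKO samples stood above both NTKO samples. Among the 6 regions, the largest fold difference in width in both runs was on chromosome 11, with 205 and 378 bp in NTKO cells and 1714 and 2470 bp in TKO cells. Of the 6 regions, CHN1 and FMNL2 included, 5 also had a wider TKO peak in both runs.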
